A study of Mus musculus with 15 samples.

Results

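The T and NK cell genes described here are 43 genes, of 23329 in the count tables, that encode T cell receptor chains and coreceptors, receptor signaling proteins, T and NK cell transcription factors, and cytotoxic proteins. They were listed by known function, with earlier results of these data known. Of the 43, 35 had a level over 1 CPM (counts scaled to library size) in 3 or more tumors and entered the tests. The other 8 (Sh2d1a, Trat1, Themis, Tbx21, Eomes, Ptcra, Gzma and Ncr1) were not tested, and their levels are given as values.

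RNA was sequenced from 15 tumors, with 1 library per mouse. The EμMyc transgene places c-Myc under the enhancer of the immunoglobulin heavy chain, which is active in B lineage cells. The Th-MYCN transgene places MYCN under the promoter of tyrosine hydroxylase, which is active in neuroblasts of the sympathetic lineage. Each transgene was studied in mice with intact Casp2 and in mice lacking it (Casp2-/-), so that the effect of caspase-2 loss on tumors of 2 kinds could be compared. The lymphomas are labelled as cervical lymph node tumors of C57BL/6 mice. The 4 EμMyc tumors had onsets of 13, 13, 13 and 19 weeks, and the 3 EμMyc/Casp2-/- tumors of 9, 8 and 12 weeks. The neuroblastomas were paraspinal thoracic tumors of Sv129/C57BL6 mice, picked for little or no blood vascularization. The 4 Th-MYCN tumors had onsets of 21, 13, 10 and 15 weeks, and the 4 Th-MYCN/Casp2-/- tumors of 15, 18, 24 and 15 weeks. Single tumors carry the names of the sample labels, such as EuMycC2ko215. Tumor type, strain and tissue change together in this design and cannot be told apart. All 3 EμMyc/Casp2-/- tumors had earlier onsets than the 4 EμMyc tumors, so genotype and onset cannot be told apart in the lymphomas.

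T cells recognize antigen through a receptor carried to the surface by the CD3 chains. The coreceptors CD4 and CD8 bring the kinase Lck to the engaged receptor, Lck activates ZAP-70, and ZAP-70 phosphorylates the adaptors LAT and SLP-76 (encoded by Lcp2). In the thymus, developing T cells rearrange their receptor genes with the Rag proteins, display a pre-T receptor that contains the Ptcra chain, and pass through a stage that carries CD4 and CD8 together. Epithelial cells guide this process under the transcription factor Foxn1. A lymph node contains mature T cells, so a lymphoma taken from it can hold their RNA beside that of the tumor. In bulk RNA, fewer cells of a type and less RNA per cell cannot be told apart.

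Casp2 itself was lower in the knockout tumors but was not at 0. Its level was 167, 125, 203 and 139 CPM in the EμMyc tumors and 58, 51.9 and 76.1 CPM in the EμMyc/Casp2-/- tumors, so these groups did not overlap (log2 fold change -1.35, SE 0.266, edgeR likelihood ratio test (LRT) FDR 4e-04). In the neuroblastomas it was 76 to 125 CPM with Casp2 and 39.6 to 80.2 CPM without it (log2 fold change -0.79, SE 0.245, edgeR LRT FDR 0.101). Reads were summed over the whole gene, so they do not show which exons remained.

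The library of EuMycC2ko215 stood apart from the other 14. It held 4940464 reads on genes, against at least 9236641 in each of the others, and 11.21% of its reads were unmapped, against 2.26 to 3.891%. Myc was at 498 CPM in it and at 1238 to 1914 CPM in the other 6 lymphomas, and Xist, the RNA of the inactive X chromosome, was at 1666 CPM in it and at 1.4 CPM or less in those 6. Xist was also at 1678 to 3735 CPM in MYCN175, MYCN332, MYCNC2ko118 and MYCNC2ko144, and at 35.1 CPM or less in the other neuroblastomas. The part of sex in the differences between EuMycC2ko215 and the other lymphomas was not tested. B cell genes were as abundant in EuMycC2ko215 as in its neighbors (9 genes, summed level 3189 CPM, against 2199 to 5344). It also had the highest summed level of the T and NK cell genes, so the comparisons that include it are given with it and without it. The other groups held 9236641 to 13093667 reads per EμMyc tumor, 13862487 to 17638029 per Th-MYCN tumor and 10353787 to 15681695 per Th-MYCN/Casp2-/- tumor.

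Summed over the 43 genes, the level was 3211 CPM in EuMycC2ko215, 395 to 683 CPM in the other 6 lymphomas and 312 to 450 CPM in the 8 neuroblastomas. EuMycC2ko215 was the highest of the 7 lymphomas for 31 of the 43 genes, and for 25 of the 35 tested, where 25.5% of all genes tested had their highest value in this tumor. It exceeded every other lymphoma more than 2-fold (1 CPM added to each value) for 19 of the 35, against 3.8% of all genes, and more than 10-fold for 7 of the 35, against 0.202%. Of the 43 genes, 40 had over 3 reads in it despite its low depth. The exceptions were Eomes, Prf1 and Ncr1, genes of cytotoxic and NK cells, each at 0 reads.

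**Figure D1:**
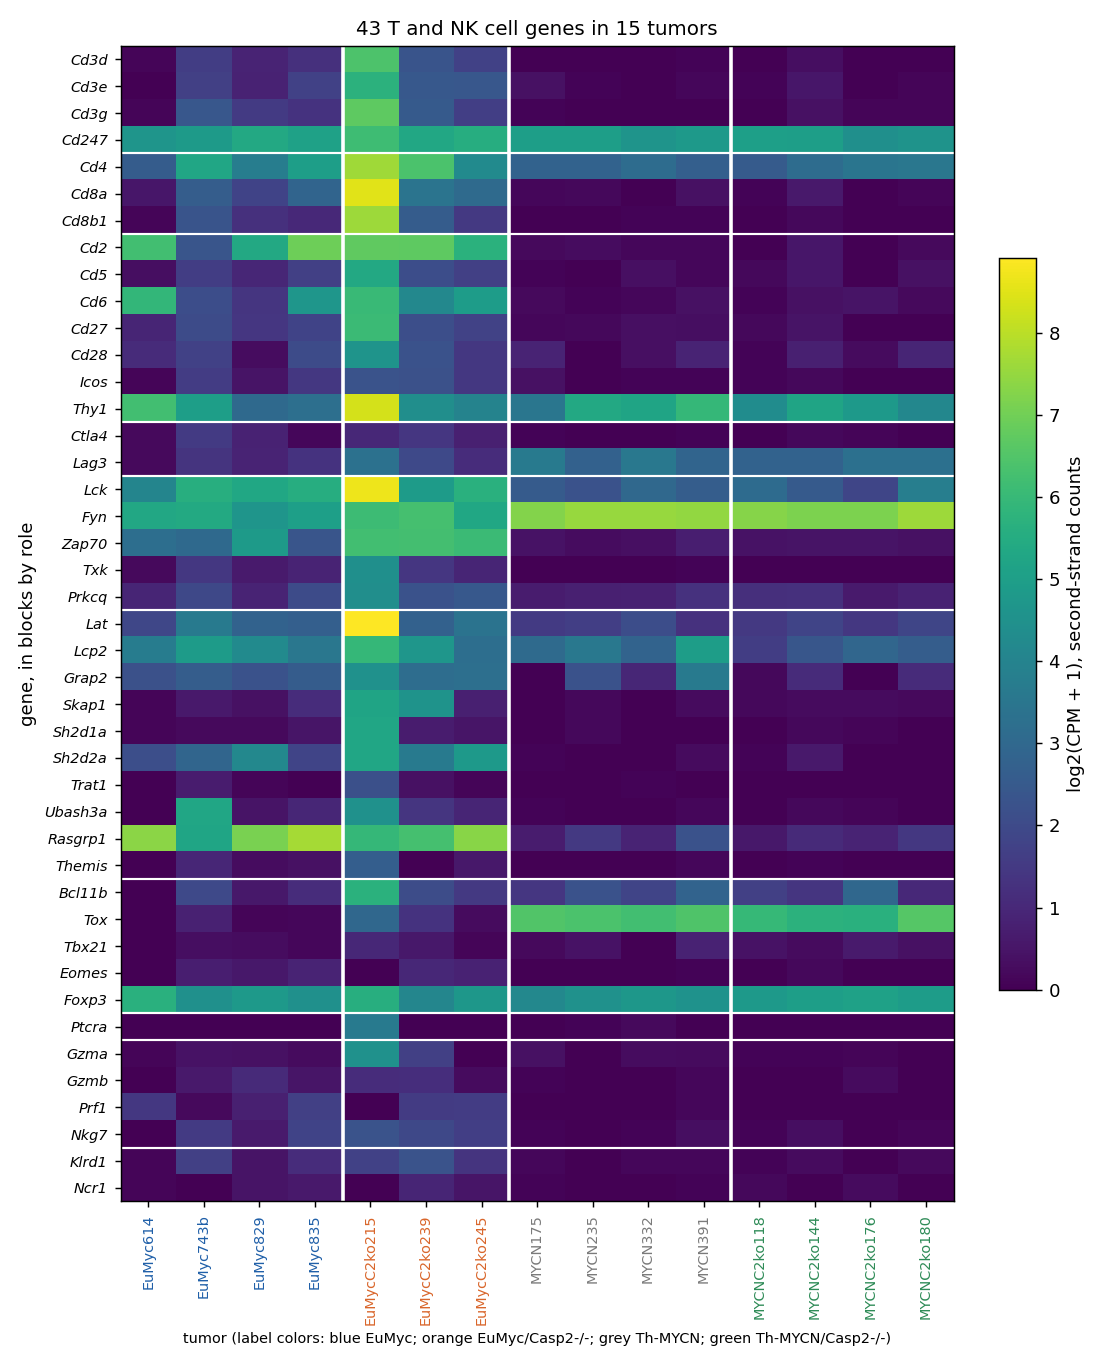
Level of each of the 43 genes (rows, in blocks by role) in each of the 15 tumors (columns, label color by group) on a log2(CPM + 1) scale from second-strand counts. The column of EuMycC2ko215 is the highest lymphoma column for 31 of the 43 genes, while Fyn and Tox are brighter in the 8 neuroblastomas.

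The CD3 chains transmit the receptor's signal. Cd3e (chr9:44998740-45009627, minus strand, GRCm38) was at 0, 2.22, 0.787 and 2.34 CPM in the EμMyc tumors, at 52, 4.42 and 4.34 CPM in the EμMyc/Casp2-/- tumors, and at 0.45 CPM or less in the 8 neuroblastomas. Cd3d was at 0.0875, 2.05, 0.866 and 1.38 CPM in the EμMyc tumors and at 84.6, 3.92 and 2.32 CPM in the EμMyc/Casp2-/- tumors. For these genes the 3 EμMyc/Casp2-/- tumors all lay above the 4 EμMyc tumors, but EuMycC2ko215 lay far above the other pair. EuMyc614 had 1, 0 and 1 reads on Cd3d, Cd3e and Cd3g. Cd3g reached 103 CPM in EuMycC2ko215 and 0.0875 to 4.76 CPM in the other lymphomas.

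Among the coreceptors, Cd8a (chr6:71373427-71379173, plus strand) was at 0.437, 5.22, 2.44 and 6.37 CPM in the EμMyc tumors and at 362, 9.85 and 7.57 CPM in the EμMyc/Casp2-/- tumors. Cd8b1, the other CD8 chain, was at 192 CPM in EuMycC2ko215 and at 5.01 CPM or less in the other lymphomas. Cd4 was at 199 CPM in EuMycC2ko215 and at 4.99 to 83 CPM in the other lymphomas, where EuMycC2ko239 was the highest. The excess in EuMycC2ko215 was smaller for Cd4 than for Cd8a, and the ratio of Cd4 to Cd8a CPM was 0.549 in it and 2.4 to 11.4 in the other 6. Ptcra, the pre-T receptor chain, had 11.5 CPM in EuMycC2ko215 and 0 reads in the other 6 lymphomas, where a count of 0 allows up to 0.2362 to 0.3185 CPM, and it reached 0.173 CPM in the neuroblastomas.

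The sequences before the transcription start of Cd3d, Ptcra and Zap70 are shown because the first pair stood out in EuMycC2ko215 and Zap70 was high in all 3 EμMyc/Casp2-/- tumors. They are from RefSeq (GRCm38.p6), the 250 bases upstream of the start site, 5′ to 3′ on the gene's strand. Cd3d is at chr9:44981536-44981785 on the plus strand, Ptcra at chr17:46763713-46763962 on the minus strand and Zap70 at chr1:36761548-36761797 on the plus strand. Capitals mark matches to CTTTGA (a TCF/LEF core), AGGAAG (an ETS core) and CAGCTG (an E-box), on either strand; TGTGGT (a RUNX core) was searched too.
Cd3d: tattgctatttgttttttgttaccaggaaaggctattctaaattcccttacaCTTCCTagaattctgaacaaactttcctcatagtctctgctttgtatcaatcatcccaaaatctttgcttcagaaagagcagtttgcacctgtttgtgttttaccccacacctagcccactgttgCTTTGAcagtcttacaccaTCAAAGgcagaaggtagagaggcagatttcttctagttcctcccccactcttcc
Ptcra: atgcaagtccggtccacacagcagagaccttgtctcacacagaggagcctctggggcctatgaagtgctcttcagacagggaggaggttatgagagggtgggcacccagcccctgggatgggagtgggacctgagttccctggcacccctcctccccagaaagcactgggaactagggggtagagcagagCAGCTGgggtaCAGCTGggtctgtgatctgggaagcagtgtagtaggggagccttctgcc
Zap70: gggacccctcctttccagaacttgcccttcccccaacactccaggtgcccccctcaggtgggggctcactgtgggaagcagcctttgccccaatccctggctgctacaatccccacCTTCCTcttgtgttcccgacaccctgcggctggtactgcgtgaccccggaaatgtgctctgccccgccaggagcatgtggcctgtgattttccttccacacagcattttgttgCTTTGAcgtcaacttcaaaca
Cd3d held 2 TCF/LEF letters and 1 ETS match, Ptcra 2 E-box matches, and Zap70 1 TCF/LEF and 1 ETS match. RefSeq entries were found for 30 of the 43 genes. The TCF/LEF letters stood in 7 of these 30 and in 13.8% of all 32851 promoters of this length, the ETS letters in 14 of 30 and 29.5%, the RUNX letters in 7 of 30 and 14%, and the E-box in 3 of 30 and 13%. These are matches of letters and show no binding.

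Several receptor signaling genes had their highest level in the same tumor. Lat (chr7:126363824-126369570, minus strand), the membrane adaptor on which the signal is assembled, was at 2.71, 11.5, 6.06 and 5.42 CPM in the EμMyc tumors and at 482, 5.76 and 9.59 CPM in the EμMyc/Casp2-/- tumors. Lck was at 412 CPM in EuMycC2ko215 and at 15.7 to 49.6 CPM in the other lymphomas. Without EuMycC2ko215 the ranges of the genotypes overlapped for Lat and for Lck. Per kilobase of exon, Lat (174 CPM per kb), Lck (141), Cd8b1 (130) and Thy1 (108), a surface glycoprotein of mouse T cells, had the highest levels of the 43 genes in that tumor. Txk, a Tec family kinase, was at 20.5 CPM in it and at 1.71 CPM or less in the others. Sh2d1a, the adaptor SAP, was at 38.1 CPM in it and at 0.584 CPM or less in the others, and Themis, needed for positive selection in the thymus, was at 5.27 CPM and at 0.941 CPM or less.

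**Figure D2:**
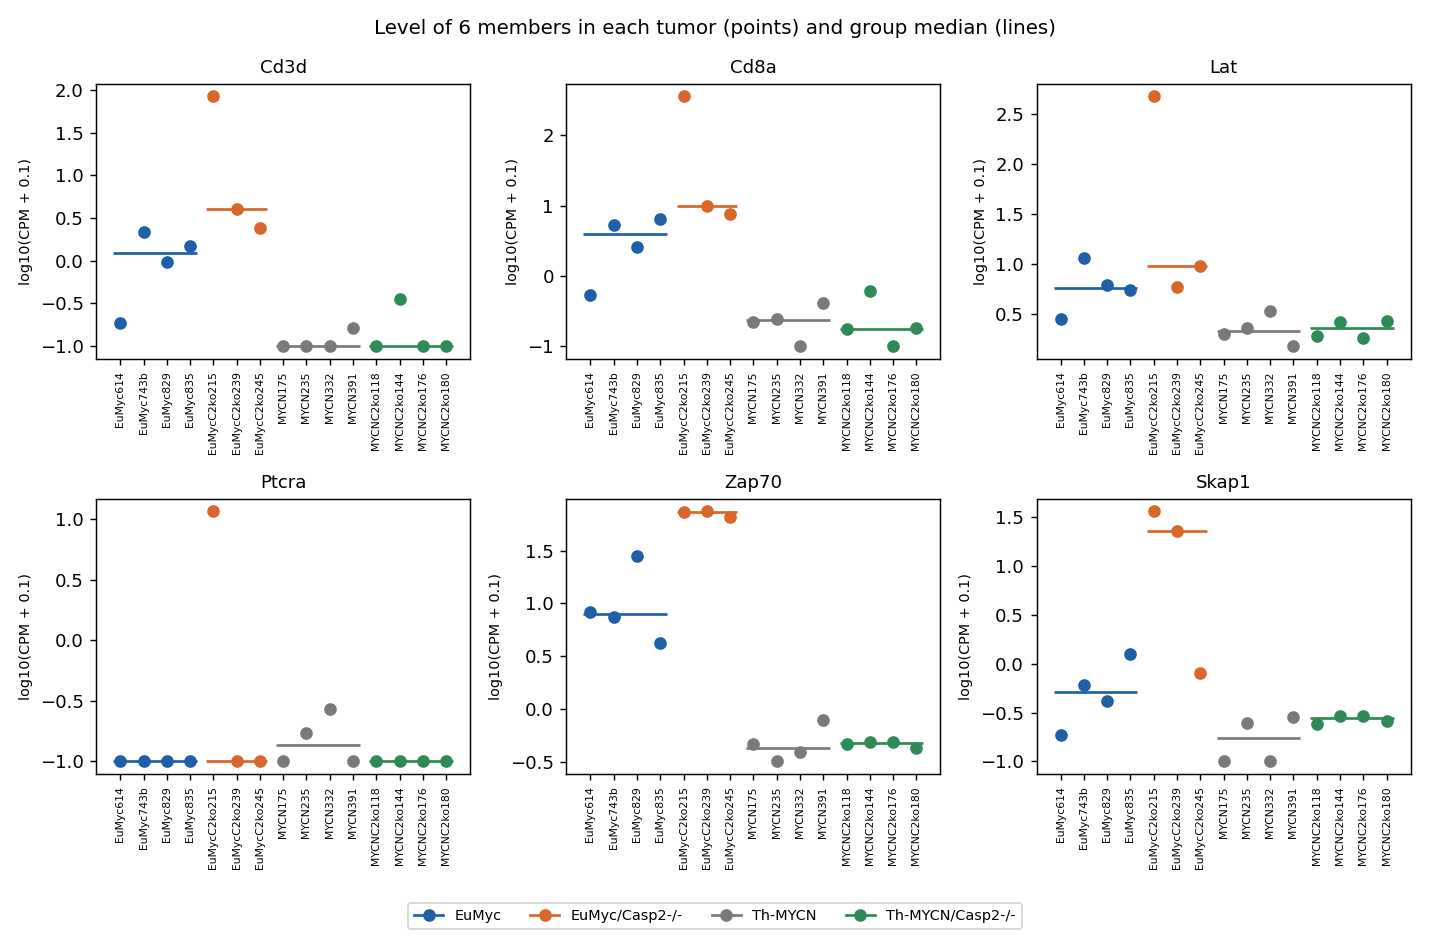
Level of Cd3d, Cd8a, Lat, Ptcra, Zap70 and Skap1 in each tumor (points, log10 of CPM + 0.1) with the group median (lines). EuMycC2ko215 is far above the other lymphomas for Cd3d, Cd8a, Lat and Ptcra, Skap1 is high in EuMycC2ko215 and EuMycC2ko239, and Zap70 lies between 66.4 and 74.4 CPM in all 3 EμMyc/Casp2-/- tumors.

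Genes of the thymus were high in the same tumor. The 6 thymic epithelial genes listed (Foxn1, Psmb11, Prss16, Ccl25, Tbata and Krt5) summed to 551 CPM in EuMycC2ko215, with all 6 above 3 reads. In EuMyc614, EuMyc743b, EuMyc829 and EuMyc835 the sum was 10.9, 4.45, 5.2 and 5.95 CPM, and in EuMycC2ko239 and EuMycC2ko245 it was 5.18 and 9.69 CPM. In the neuroblastomas it was 4.18 to 15 CPM. Outside EuMycC2ko215 the chemokine gene Ccl25 was the most abundant of the list per kilobase in each of the 14 tumors. Foxn1, which defines this lineage, had 13 reads in EuMycC2ko215 and 0 in the other 6 lymphomas. Psmb11, the thymus-specific proteasome subunit, was at 37.7 CPM in that tumor and at 0.606 CPM or less in the other lymphomas, and the serine protease Prss16 was at 245 CPM and at 3.06 CPM or less.

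Of the thymocyte list (13 genes), the sum was 1601 CPM in EuMycC2ko215, 156 to 396 CPM in the other lymphomas and 210 to 348 CPM in the neuroblastomas. Per kilobase its most abundant gene in EuMycC2ko215 was Dntt, which adds bases to rearranging receptor genes and was at 299 CPM. Rag1 was at 358 CPM in that tumor against at most 69.4 CPM in the other lymphomas, and Ccr9 at 41.6 CPM against at most 2.75 CPM. Lef1, Notch1, Gfi1 and Cd1d1 of the same list were highest in other lymphomas, such as Gfi1 at 149 CPM in EuMyc829 against 54.1 CPM in EuMycC2ko215. The rest of the list was highest in EuMycC2ko215. B lineage cells also use Rag1 and Dntt, and Dntt was at 63.7 CPM in EuMyc743b. Genes of mature recirculating T cells did not follow this order. The 6 of them, which include Ccr7, S1pr1, Klf2, Il7r and Ms4a4b, summed to 364 CPM in EuMycC2ko215 and to 433 to 712 CPM in the others, and B cells express several of them too. The tissue of EuMycC2ko215, labelled as lymph node like the other lymphomas, is therefore uncertain. The part of thymus RNA in the T cell gene levels of EuMycC2ko215 was not tested.

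**Figure D3:**
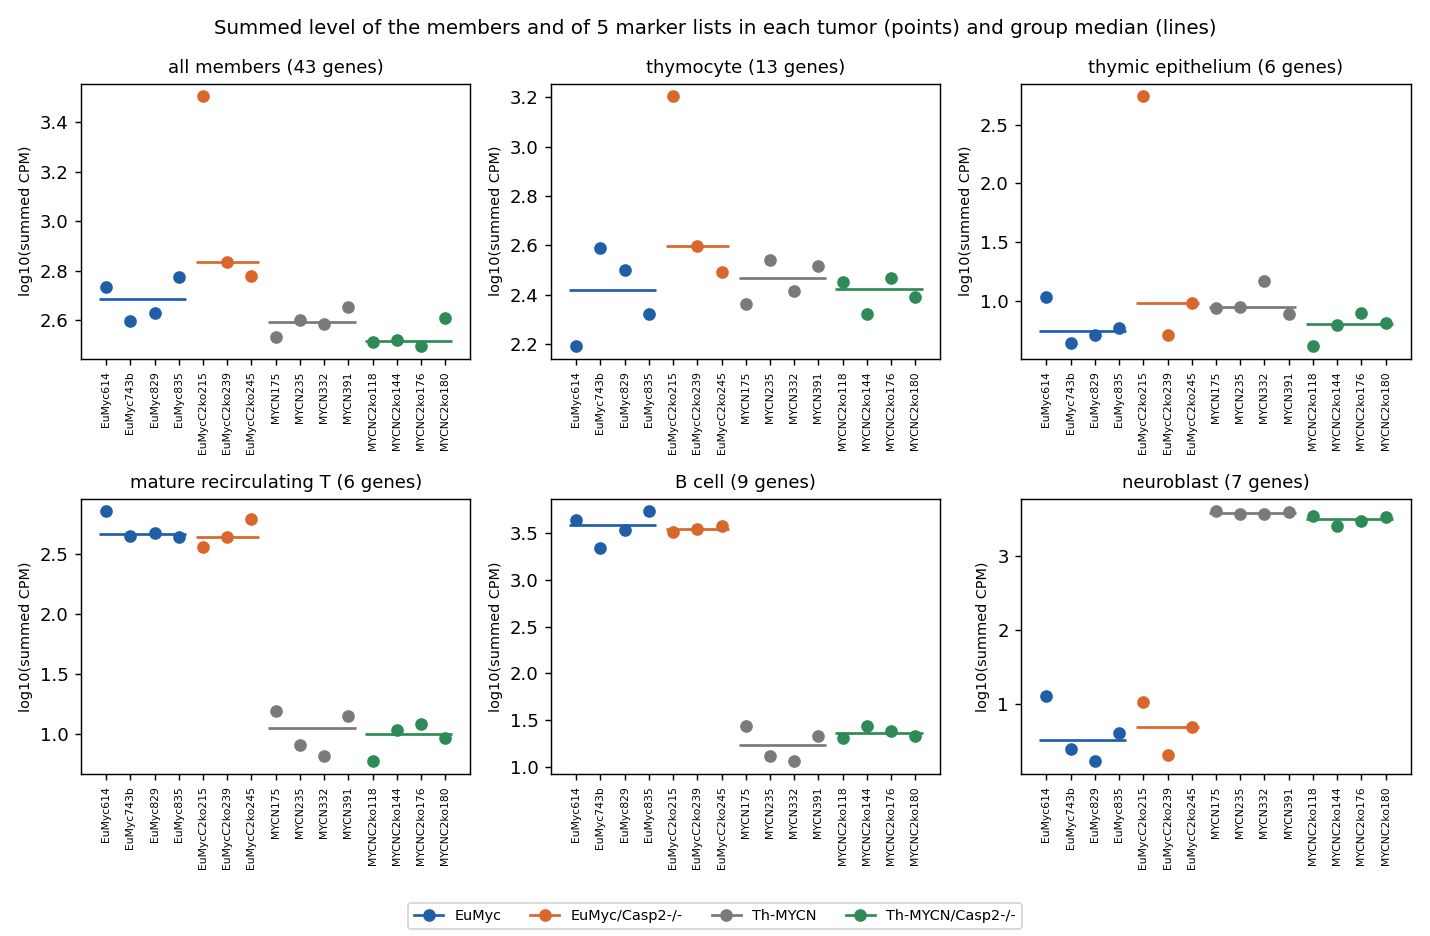
Summed CPM of the 43 genes and of 5 marker lists in each tumor (points, log10 scale) with the group median (lines). EuMycC2ko215 is the highest tumor for the 43 genes (3211 CPM), the thymocyte list (1601 CPM) and the thymic epithelium list (551 CPM), and lies within the other lymphomas for the B cell list.

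The sums of other lists moved less in that tumor. Regulatory and activated T cell genes (12) summed to 141 CPM in it and 156 to 250 CPM in the other lymphomas. Much of this sum was Cd44, at 69 CPM in it and 137 to 227 CPM in the others. Il2ra, Ikzf2, Tnfrsf18, Pdcd1, Gata3 and Cd69 were highest in it, such as Cd69 at 24 CPM against at most 6.76 CPM. Cd44, Tnfrsf4, Tnfrsf9, Cd40lg, Tigit and Havcr2 were highest in other lymphomas. Further genes of receptor signaling (15) summed to 1785 CPM in it and 1374 to 2414 CPM in the others. Further cytotoxic and NK genes (13) summed to 43 CPM against 2.89 to 39.4 CPM, macrophage genes (10) to 1723 CPM against 348 to 1278 CPM, and lymph node stroma genes (5) to 82.2 CPM against 9.76 to 47.9 CPM. Pre-B cell genes (3) summed to 404 CPM against 162 to 385 CPM, endothelial genes (5) to 166 CPM against 119 to 232 CPM, and fibroblast genes (5) to 291 CPM against 235 to 765 CPM. Thus the sums of the macrophage, stroma, cytotoxic and pre-B cell lists were also at their lymphoma maximum there, by smaller factors than the thymic lists. Of the stroma list Ccl19, Pdpn, Cxcl13 and Madcam1 were each highest there, and Ccl21a had 0 reads in every tumor. Single genes of the pre-B cell, macrophage and cytotoxic lists differed. Vpreb3 was highest there (399 CPM against at most 382 CPM), while Vpreb1 (4.3 against at most 60.1 CPM) and Igll1 (1.56 against at most 95.1 CPM) were not. Of the macrophage list Lyz2, C1qa and C1qb were highest there, and Csf1r, Emr1, Cd68, Itgam, Cd14, Mrc1 and C1qc were not. Of the cytotoxic list Cst7, Ctsw, Fasl and the NK receptor gene Klrb1c (6.25 CPM against at most 1.75 CPM) were highest there. Gzmk, Ifng, Ccl5, Xcl1, Klrk1, Klre1, Klrg1, Il2rb and Itga2 were not. Neuroblast genes (7) stayed at 12.9 CPM or less in all 7 lymphomas, against 2602 to 4056 CPM in the neuroblastomas. Red blood cell genes (5 listed, 4 with a row) summed to 44.9 CPM against 11.6 to 672 CPM.

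For 2 of the 43 genes the second-strand counts used here mostly hold reads that the either-strand counts leave out, when summed over all tumors. The libraries do not mark strand, since the second-strand counts hold 49.56 to 50.22% of the either-strand reads of each tumor, and a read in exons shared with a gene of the other strand is dropped as ambiguous only when strands are ignored. Cd247, the CD3 zeta chain, shares 3213 of its 5329 exon bases with other genes, mostly Pou2f1, and its either-strand reads were 8.4% of the summed reads of the strands, although 85.1% in EuMycC2ko215. Foxp3, the transcription factor of regulatory T cells, shares 1443 of 4577 exon bases, Ccdc22 and Flicr among the partners, and this value was 2.16%. It was 99.9% or more for each of the other 41.

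From second-strand counts Cd247 was at 20.7 to 69.9 CPM and Foxp3 at 15.9 to 50 CPM in the 15 tumors, with little order by group. From either-strand counts Cd247 was at 0.486, 2.58, 1.84 and 1.49 CPM in the EμMyc tumors, at 57.3, 3.31 and 2.14 CPM in the EμMyc/Casp2-/- tumors, and at 0.644 CPM or less in the neuroblastomas. EuMycC2ko215 was again far above every other tumor. The other EμMyc/Casp2-/- tumors overlapped the EμMyc tumors, as they did for Cd3d from either-strand counts (3.06 CPM in EuMycC2ko245 against 3.22 CPM in EuMyc743b). Foxp3 was at 1.49 CPM or less in every tumor. Second-strand values of this pair are therefore not read as levels of Cd247 or Foxp3, although the sums and counts over the 43 or 35 genes include them.

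**Figure D4:**
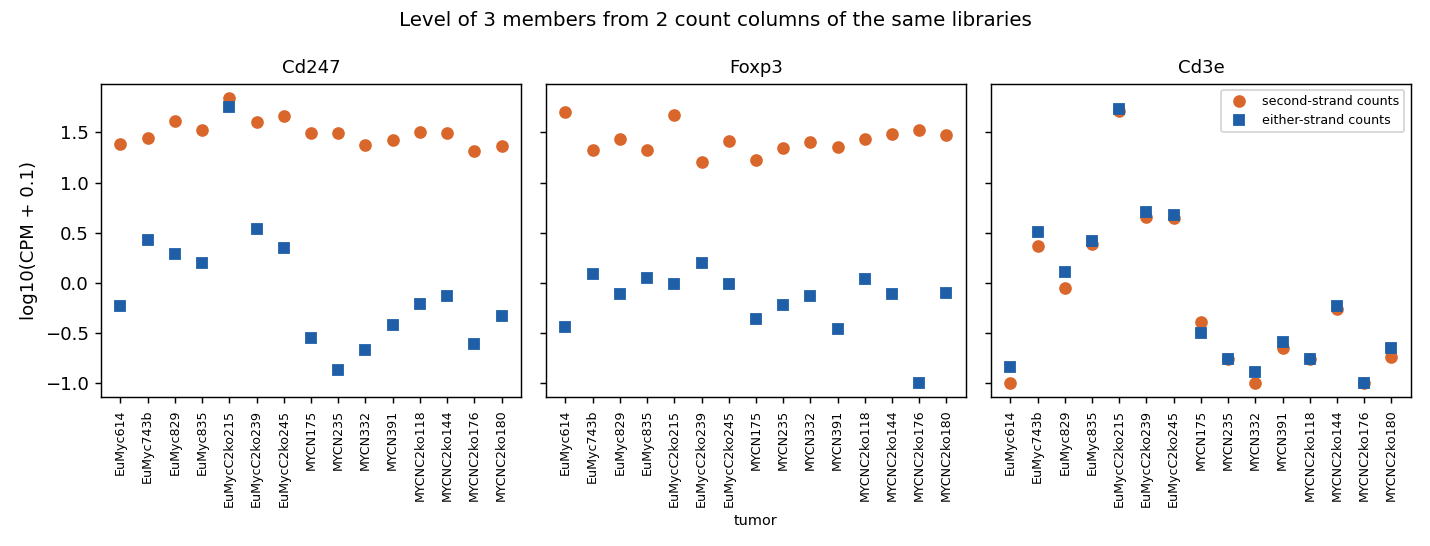
Level of Cd247, Foxp3 and Cd3e in each tumor (log10 of CPM + 0.1) from second-strand counts (circles) and either-strand counts (squares). The counts agree for Cd3e and differ for Cd247 and Foxp3, where in EuMycC2ko215 Cd247 is at 69.9 CPM by the first and 57.3 CPM by the second.

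The comparison of EμMyc/Casp2-/- with EμMyc lymphomas asks which genes differ between the Casp2 genotypes, which also differ in onset. Of the 35 genes tested, 11 were higher (more than 2-fold at an FDR under 0.05, edgeR LRT) and 0 lower, where 1.14% of all genes tested were called higher and 0.302% lower. The median log2 fold change was 2.07 over the 35 genes and -0.03 over all genes. The called genes were Cd3d, Cd4, Cd8a, Cd8b1, Cd27, Zap70, Prkcq, Lat, Skap1, Bcl11b and Tox. By edgeR's quasi-likelihood test (QLF) 0 of the 35 were called, where 0.0941% of all genes were called higher, although 21 had an unadjusted p under 0.05, against 8.53% of all genes. The LRT gave such a p to 22 (9.89% of all genes) and DESeq2 to 16 of 28 (9.92%). DESeq2 called 6 (Cd4, Cd5, Prkcq, Skap1, Tox and Zap70), against 1.11% of all genes called higher, and gave no adjusted p for 10 of the 35. With either-strand counts the LRT called 12, against 1.29% of all genes, with 9 of the 11 among them. Cd247 (log2 fold change 3.7, SE 0.928, edgeR LRT FDR 0.0161), Cd5 (3.5, FDR 0.0401) and Lag3 (2.15, FDR 0.0463) were gained, and Cd3d (4.48, FDR 0.116) and Cd4 (2.12, FDR 0.0598) were lost. The count depended on single tumors of every group. It was 5, 4 and 5 without EuMyc614, EuMyc829 and EuMyc835, 1 without EuMycC2ko215, 18 without EuMycC2ko245, and 7 without any single Th-MYCN tumor or without MYCNC2ko118.

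By role, all 3 coreceptors were called, with log2 fold changes of 2.21 (Cd4, SE 0.645, edgeR LRT FDR 0.0482), 5.12 (Cd8a, SE 1.17, FDR 0.0117) and 5.34 (Cd8b1, SE 1.31, FDR 0.0273). The Cd4 call held in 3 of 15 fits that left out 1 tumor. Of the 4 CD3 chains, Cd3d was called (4.77, SE 1.26, edgeR LRT FDR 0.0414), in 10 of those 15 fits. Of 7 adhesion and costimulatory receptors, Cd27, a costimulatory receptor of the TNF receptor family, was called (3.58, edgeR LRT FDR 0.0414). Among 5 kinases, Zap70 and Prkcq, which leads to NF-κB, were called. Among 7 adaptors tested, Lat (4.69, SE 0.934, edgeR LRT FDR 0.0017) and Skap1 (5.25, SE 1.01, FDR 0.000929) were called. Of 3 transcription factors tested, Bcl11b, which commits cells to the T lineage, was called (4.03, edgeR LRT FDR 0.0419), and so was Tox, which acts in thymic CD4 T cell development (3.46, edgeR LRT FDR 0.00628). Of these calls, Cd27 and Bcl11b each held in 5 and Prkcq in 3 of the 15 fits that left out 1 tumor. None of the 2 inhibitory receptors, 3 cytotoxic granule genes or 1 NK receptor tested passed.

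Without EuMycC2ko215, 1 of 30 genes tested was called, where 0.386% of all genes were called higher. This was Zap70, and the median log2 fold change fell to 0.97 (all genes -0.02). Lat went from 4.69 to 0.27 (SE 0.549), Cd27 from 3.58 to 0.56 (SE 0.676) and Cd8b1 from 5.34 to 1.08 (SE 1.11), each with an edgeR LRT FDR of 1. Cd8a went from 5.12 to 1.29 (SE 0.989), Cd3d from 4.77 to 1.53 (SE 1.05), Bcl11b from 4.03 to 1.15 (SE 1.04), Tox from 3.46 to 1.84 (SE 0.696), Cd4 from 2.21 to 1.24 (SE 0.67) and Prkcq from 2.3 to 1.14 (SE 0.621). Thy1 went from 2 to -0.76. Skap1, an adaptor that links the receptor to integrins, was no longer tested, and it was at 23 CPM in EuMycC2ko239 and 0.707 CPM in EuMycC2ko245, against at most 1.17 CPM in the EμMyc tumors. In 6 of the 35 genes (Cd3d, Cd3e, Cd8a, Zap70, Prkcq and Grap2) every EμMyc/Casp2-/- tumor lay above every EμMyc tumor, where 1.75% of all genes did so. Leaving out EuMycC2ko215 cannot undo this separation, so it tests nothing for these 6. No other of the 30 genes tested without that tumor joined them (3.65% of all genes did so then). From either-strand counts of all tumors Cd3d overlapped, and Fyn and Nkg7 no longer did.

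**Figure D5:**
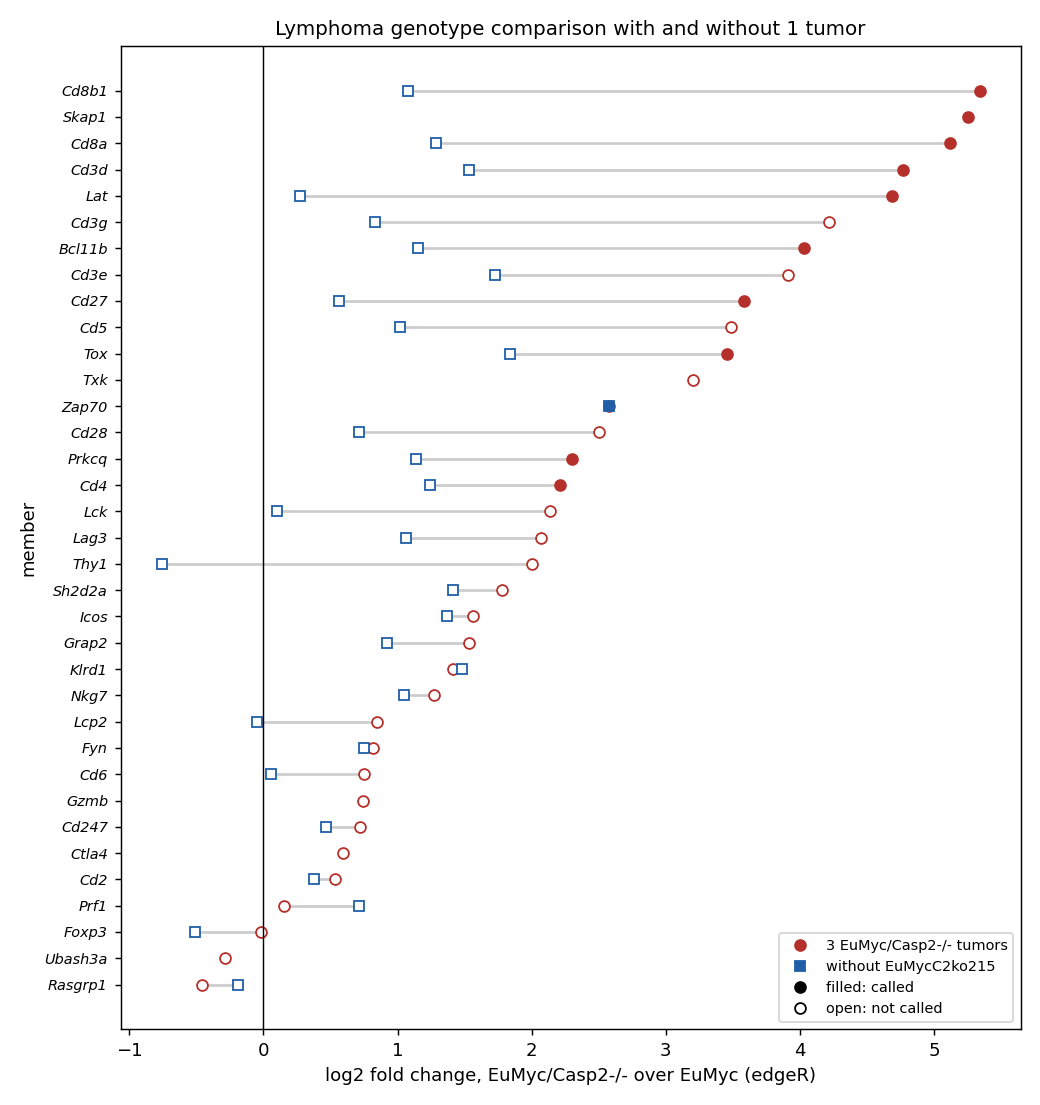
Log2 fold change of EμMyc/Casp2-/- over EμMyc lymphomas for the 35 genes tested, with all 3 EμMyc/Casp2-/- tumors (circles) and without EuMycC2ko215 (squares); filled symbols were called by the edgeR LRT. Most values move toward 0 without that tumor, and Zap70 stays at 2.58.

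Zap70, the kinase recruited to phosphorylated CD3 chains, was at 8.22, 7.36, 28.1 and 4.14 CPM in the EμMyc tumors and at 73.6, 74.4 and 66.4 CPM in the EμMyc/Casp2-/- tumors. The groups did not overlap, and in contrast to the CD3 chains all 3 knockout tumors were alike. The mean was 12 ± 10.9 CPM (SD, n = 4) against 71.5 ± 4.39 CPM (SD, n = 3), with a log2 fold change of 2.58 (SE 0.539, edgeR LRT FDR 0.000984). Without EuMycC2ko215 it was 2.58 as well (SE 0.634, edgeR LRT FDR 0.00706). The QLF gave an FDR of 0.0554 with that tumor and 0.136 without it, and DESeq2 an adjusted p of 0.000248 with it. Zap70 (chr1:36761798-36782818, plus strand) shares no exon bases with another annotated gene.

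Several of the 43 genes were abundant in a lymphoma with almost no CD3 RNA. EuMyc614, with at most 1 read on Cd3d, Cd3e and Cd3g, had 73.6 CPM of the adhesion receptor Cd2, 59.2 CPM of Cd6, a scavenger receptor family protein of lymphocytes, 72.7 CPM of Thy1, 15.7 CPM of Lck and 163 CPM of Rasgrp1, a Ras exchange factor. Across the 6 lymphomas other than EuMycC2ko215, Cd2 (median 35.7 CPM per kb), Rasgrp1 (26.7) and Lck (14.6) had the highest levels per length of the 43 genes. Rasgrp1 was lower in EuMycC2ko215 (60.8 CPM) than in 5 of those 6. Ubash3a, a regulator of receptor signaling, was at 38.1 CPM in EuMyc743b, above its level in EuMycC2ko215 (21.7 CPM), and at 1.59 CPM or less in the other 5. Sh2d2a, an adaptor that binds Lck, was at 2.55 to 17 CPM in the EμMyc tumors and at 37.7, 11.9 and 26.8 CPM in the EμMyc/Casp2-/- tumors, which overlap.

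Of the cytotoxic granule and NK receptor genes, all but Gzma were at 3.91 CPM or less in the 7 lymphomas. Nkg7, of cytotoxic granules, was at 0, 1.88, 0.551 and 2.44 CPM in the EμMyc tumors and at 3.91, 2.84 and 2.12 CPM in the EμMyc/Casp2-/- tumors. Perforin (Prf1) was at 0.171 to 2.23 CPM in the 6 tumors and at 0 reads in EuMycC2ko215, which allows up to 0.586 CPM. Granzyme A (Gzma) did the opposite, with 21.7 CPM in EuMycC2ko215 and at most 2.25 CPM in the others. Klrd1, an NK receptor chain, peaked in EuMycC2ko239 (3.84 CPM). The exhaustion-related receptors Lag3 and Ctla4 reached 8.99 CPM in EuMycC2ko215 and 1.88 CPM in EuMyc743b, respectively.

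In the companion lists, the comparison of lymphoma genotypes called 3 of 12 thymocyte genes tested (among them Tcf7 at 3.67 and Aqp11 at 2.92 on the log2 scale), 2 of 3 thymic epithelial genes (Prss16 6.08 and Ccl25 3.49), 1 of 9 regulatory and activated T cell genes (Gata3 3.78) and 1 of 15 further signaling genes (Dok2 2.43), all higher by the edgeR LRT. None of 6 mature recirculating T, 7 cytotoxic and NK, 9 B cell, 3 pre-B cell, 10 macrophage, 5 endothelial, 5 fibroblast, 3 lymph node stroma, 7 neuroblast or 2 red blood cell genes tested was called. Without EuMycC2ko215 none of the thymocyte, thymic epithelial, regulatory T cell or signaling genes was called. Alas2 of the red blood cell list was then called (log2 fold change 3.11, edgeR LRT FDR 0.0491). That call rests on EuMycC2ko245 (41.3 CPM). In EuMycC2ko239 Alas2 was at 0.918 CPM, below every EμMyc tumor (1.75 to 3.42 CPM), so the groups overlapped.

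In the neuroblastomas 11 of the 41 genes other than Cd247 and Foxp3 had over 3 reads in all 8 tumors, and 14 had over 3 reads in none. Cd3d, Cd3e, Cd3g, Cd8a and Cd8b1 did not exceed 0.514 CPM. Fyn, a Src family kinase also found in neurons, was the most abundant of the 43 per kilobase in each neuroblastoma (median 38.2 CPM per kb), followed by Thy1 (10.3), which neurons carry too, and Tox (10.2). Fyn was at 152, 183, 183 and 176 CPM in the Th-MYCN tumors and at 158, 143, 141 and 195 CPM in the Th-MYCN/Casp2-/- tumors. Tox was at 90.2, 82.4, 72.8 and 87.6 CPM in the Th-MYCN tumors and at 61.1, 52.4, 49.7 and 92.6 CPM in the Th-MYCN/Casp2-/- tumors. The genotypes overlapped for Fyn and for Tox.

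Caspase-2 loss changed none of these genes past the threshold in the neuroblastomas. Of 35 tested, 0 were called higher and 0 lower by the edgeR LRT, where 0.188% of all genes were called higher and 0.625% lower; the QLF and DESeq2 also called 0, against 0.0336% and 0.784% of all genes in either direction. An unadjusted p under 0.05 was given by each of the 3 tests to 2 genes, where the LRT gave one to 7.78% of all genes, the QLF to 6.77% and DESeq2 to 7.93%, so the share among these genes was no larger than the background. For the LRT these were Lcp2 (log2 fold change -1.6, SE 0.604, edgeR LRT FDR 0.297) and Grap2 (-2.73, SE 1.09, FDR 0.39), adaptors of the LAT complex. Lcp2 was at 7.45, 10.8, 6.18 and 30.3 CPM in the Th-MYCN tumors and at 2.09, 4.18, 6.65 and 5.12 CPM in the Th-MYCN/Casp2-/- tumors. Grap2 was at 0, 3.7, 0.923 and 11.9 CPM and at 0.144, 1.16, 0 and 1.14 CPM. For these genes MYCN391 was the highest neuroblastoma, and the groups overlapped. Ptprc, the CD45 gene of leukocytes, was also highest there, at 60 CPM against 6.19 to 16.3 CPM in the other 7 neuroblastomas. The macrophage list summed to 961 CPM in MYCN391 and to 388 to 908 CPM in the others, with 5 of its 10 genes highest in MYCN391 and the others, C1qc among them, highest elsewhere. In the companion lists, 2 of 12 thymocyte genes tested, 1 of 15 further signaling genes and 2 of 5 endothelial genes were called lower by the edgeR LRT, and no gene of the other lists was called. The thymocyte genes were Lef1 (log2 fold change -4.64, edgeR LRT FDR 0.0319) and Notch3 (-1.79, FDR 0.0314). The endothelial genes summed to 72.3, 50.3, 46.3 and 49.2 CPM in the Th-MYCN tumors and to 23.8, 18.8, 18.9 and 30.9 CPM in the Th-MYCN/Casp2-/- tumors, with Pecam1 (-1.2, edgeR LRT FDR 0.000552) and Kdr (-1.46, FDR 0.0308) called lower. The part of leukocyte or endothelial RNA in the Lcp2 and Grap2 values was not tested.

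Between tumor types, EμMyc tumors exceeded Th-MYCN tumors for 23 of the 35 genes and were lower for 3 (edgeR LRT), where 18.9% of all genes were called higher and 28.5% lower. Some of the 35, such as Cd3d (at most 0.257 CPM in the neuroblastomas), Cd8b1 (0.129), Txk (0.0618) and Ubash3a (0.129), exceeded 1 CPM in lymphomas only. They entered the tests through the lymphomas, so the counts of higher genes in this paragraph follow partly from the filter. Cd247 was not called from second-strand counts and was called higher from either-strand counts (log2 fold change 3.34, edgeR LRT FDR 0.00119). Foxp3 was called from neither. Among the higher genes, the largest differences by the edgeR LRT were in Cd2 (log2 fold change 8.47, SE 0.86, FDR 3.22e-15), Ubash3a (7.45), Cd6 (6.94) and Sh2d2a (6.67). The value for Ubash3a rests on EuMyc743b (38.1 CPM, against 0 to 0.956 CPM in the other 3 EμMyc tumors), without which the gene was not tested. The 3 lower genes were Tox (-8.37, SE 0.787, FDR 3.44e-18), Lag3 (-3.08, SE 0.607, FDR 4.49e-06) and Fyn (-2.33, SE 0.233, FDR 1.66e-20), by the edgeR LRT. In the comparison of EμMyc/Casp2-/- with Th-MYCN/Casp2-/- tumors 30 of 35 were higher and 2 lower, where 20.5% of all genes were called higher and 27.6% lower. This count of higher genes follows partly from the filter too. The lower pair was Tox (-4.54) and Fyn (-1.38). With intact Casp2, 14 genes were higher and 3 lower in every lymphoma than in every neuroblastoma (26.4% and 32.9% of all genes), and without Casp2 28 were higher and 2 lower (23.6% and 31.2%). Without EuMycC2ko215, 23 of 30 genes were called higher and 3 lower in the comparison without Casp2 (20.7% and 27.5% of all genes), and 24 genes were higher and 4 lower in every lymphoma than in every neuroblastoma (31% and 36.1%). Cd247 was called higher there from either-strand counts of all tumors (log2 fold change 5.62, edgeR LRT FDR 5.72e-07). Thy1 (2.29) and Bcl11b (2.66) were called higher here, but without EuMycC2ko215 their log2 fold changes were -0.41 and -0.2.

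The interaction term (genotype by tumor type) asks whether the difference between Casp2 genotypes was unlike in the tumor types. It was called for Lat (log2 difference 4.7, SE 1.28, edgeR LRT FDR 0.0452, QLF FDR 0.393) and Tox (3.84, SE 1.07, LRT FDR 0.0405, QLF FDR 0.368), 2 of 35 genes, where 0.726% of all genes were called higher in this sense. Neither call was stable. Of the 15 fits that each left out 1 tumor, Lat and Tox were called in 3, those without EuMyc743b, EuMycC2ko239 or EuMycC2ko245. Without EuMycC2ko215 0 of 30 genes were called, against 0.433% of all genes. Without EuMycC2ko245 8 of 35 were called, and the share over all genes in that fit is not given here. With either-strand counts the interaction was called for Tox (4.33, edgeR LRT FDR 0.00694) and Zap70, against 0.68% of all genes, and not for Lat (4.45, FDR 0.0559). For Zap70 it was 3.04 (SE 0.742, edgeR LRT FDR 0.0113) from these counts and 2.67 (SE 0.855, FDR 0.109) from second-strand counts, where it was called without EuMyc829. Whether the genotype difference in Zap70 was called unlike between the tumor types thus depended on the counts used.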

How the data were processed

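The authors deposited 1 gene count table per tumor, made from single-end 50-base poly(A) reads (Illumina HiSeq) with FastQC and STAR on mm10/GRCm38; versions and the gene annotation release are not given in the sources used here. Each table holds counts for either strand, the first strand and the second strand, and the second-strand counts were used here. The 4 summary rows that name no gene were left out. Another EμMyc/Casp2-/- tumor and the T cell receptor constant genes were not analysed here.

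CPM were scaled by TMM. The 14880 genes that passed 1 CPM in 3 or more tumors were fitted in edgeR 4.0.16 (R 4.3.3) with a mean for each of 4 groups and the likelihood ratio test. Called genes had a Benjamini-Hochberg FDR under 0.05 over all genes tested and an absolute log2 fold change over 1. SEs come from the same negative binomial fit. Alternatives were the quasi-likelihood test, DESeq2 1.42.0, RLE scaling, other filters, either-strand counts, fits of 1 tumor type, and leaving out each tumor. Levels per kilobase and exon overlaps used GENCODE gene models on GRCm38. The test was also run on simulated counts, but the outcome is not reported here and nothing above rests on it.

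The 43 genes and the 14 companion lists (114 genes, 1 without a row) were chosen with earlier results of these data known. Genes were named from the 43 genes, up to 3 abundant genes and the called genes of each list, Casp2, Myc, Mycn and Xist, and the 10 other genes that most set EuMycC2ko215 apart. Dntt, Ccr9 and Foxn1 were chosen after their values were seen, as were genes named to show which members of a list were highest in EuMycC2ko215. A few genes of the companion lists are not reported here by name. The sequencing lane of each library is not given in the sources used here. Counts of PCR reads without molecular identifiers make limits from 0 reads cover counting error only.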

Additional observations from a re-analysis of the deposited data

Results flagged for a closer look

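The 93 groups of 4 tumors examined were each a gene in a group, with over 3 reads in at least 1 tumor. Of these, 7 (7.53%) had a tumor far from the other 3. Genes near 0 reads entered only through their highest tumor, so no chance rate is set beside this share. The share over all genes is not given here. In MYCNC2ko144 the levels were 0.257 CPM for Cd3d (next highest 0), 0.514 CPM for Cd8a (0.0812) and 0.514 CPM for Sh2d2a (0.072), all within a few reads of 0. In EuMyc743b they were 38.1 CPM for Ubash3a (next 0.956), 0.599 CPM for Trat1 (0.0787) and 0.77 CPM for Tox (0.106). In EuMyc829 Zap70 was at 28.1 CPM (next 8.22), still below the 3 EμMyc/Casp2-/- tumors.

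The difference between Casp2 genotypes was unlike in the tumor types by the interaction term of the edgeR LRT for Lat (log2 difference 4.7, FDR 0.0452) and Tox (3.84, FDR 0.0405). For each gene the call was lost without EuMycC2ko215 and by the quasi-likelihood test.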

How the results depend on the processing

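For EμMyc/Casp2-/- against EμMyc lymphomas 11 genes were called. The quasi-likelihood test called 0, DESeq2 6 (5 of the 11) and a fit of the lymphomas alone 3, and leaving out 1 tumor gave 1 to 18. RLE scaling, other filters and either-strand counts gave 11 to 12, with 9 of the 11 shared for either-strand counts (Cd3d and Cd4 lost) and 10 with no filter (Prkcq lost). For the interaction 2 genes were called, 0 by the quasi-likelihood test, 1 by DESeq2, 2 with either-strand counts (Lat lost, Zap70 gained) and 0 to 8 when 1 tumor was left out. For the neuroblastoma genotypes 0 were called, and 0 to 1 when 1 tumor was left out, the 1 being Grap2 without MYCN175. Between tumor types, where genes high in lymphomas alone passed the filter through them, 26 were called with intact Casp2 (22 to 26 when 1 tumor was left out) and 32 without Casp2 (26 to 33). In the latter comparison Thy1 and Bcl11b reversed without EuMycC2ko215 and ranged from -0.41 to 2.85 and from -0.2 to 3.49 when 1 tumor was left out; the cause was not tested. Zap70 was called in the lymphoma comparison in 15 of 15 fits that left out 1 tumor (log2 fold change 2.29 to 3.43) and lost by the quasi-likelihood test. No paired analysis was possible because the tumors come from different mice, were numbered here in accession order, and carry no label that ties a tumor of one group to a tumor of another. Depth was lowest in EuMycC2ko215, where 3 reads equal 0.586 CPM.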

Other observations

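The surrogate light chain genes of pre-B cells and Dntt were high together in EuMyc743b, the tumor with the most Ubash3a RNA. Vpreb1 was at 60.1 CPM there and at 4.3 CPM or less in the other 6 lymphomas, and Igll1 at 95.1 CPM and at 5.35 CPM or less, while Vpreb3 was at 193 CPM there and at 160 to 399 CPM in the others. Dntt was at 63.7 CPM there and at 0.956 CPM or less in the other lymphomas apart from EuMycC2ko215.

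Outside the 43 genes and the lists, the genes that most set EuMycC2ko215 apart from the other lymphomas included Pax1, a transcription factor of the thymic epithelium among other tissues, at 40.6 CPM against 0 CPM in each of the others. Spo11 and Slc16a5 were each at 39.1 CPM against at most 0.531 CPM, Tdrd5 at 28.3 CPM against at most 0.171 CPM, and 3830403N18Rik at 41 CPM against at most 0.0835 CPM. These genes were picked for this difference, so the values carry no test.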
